A study of Homo sapiens with 12 samples.

Results

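The genes examined are 54 of the 20003 gene entries in the table and lie together on the short arm of chromosome 19, band 19p13. They were picked by position, between about 10 and 20 Mb, because the region was seen to be higher with ZNF263 in H1975. Their change in H1975 chose them, so it is described here and not tested, and what was tested is their change in PC9 and HCC827 and the change of partner genes on other chromosomes. All 54 members passed the filter on low values. Every member had values in the 3 lines, but PRDX2 was listed at 0 in each PC9 library, which left 53 members with a value above 0 in that line. Among these, ICAM1 had no usable level in PC9, at 0.0508 and 0.0164 FPKM with ZNF263 against 0.0156 and 0.0743 FPKM in control, or 1 to 5 reads per library. It passed the filter through the other lines and is counted in the PC9 medians and shares.

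The cells were H1975, PC9 and HCC827, established lung adenocarcinoma lines with activating EGFR mutations, grown in DMEM and exposed to osimertinib, an inhibitor of mutant EGFR, in steps. The sample titles write H1975OR, PC9OR and HCC827OR, a suffix that the labels do not explain, and the plain line names are used below for these cells. In each line, cells made to overexpress ZNF263 (n = 2 libraries) were set against control vector cells (n = 2 libraries), which gave 12 libraries in 6 groups. All 6 groups share the drug exposure. ZNF263 is a KRAB zinc finger protein that binds G-rich DNA. The labels give neither the promoter of the vector nor the number of clones, and nothing in them says that the 2 libraries of a group are separate cultures. The p-values therefore rest on library-to-library spread, which may be technical alone. Values were FPKM, fragments scaled by gene length and library size, as deposited, and a log2 change is on the log2(FPKM + 1) scale, ZNF263 minus control.

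Neighbouring genes on a human chromosome mostly have unrelated functions, and some pairs are read in opposite directions from nearby starts. Why the members moved together in H1975 was not tested. The gene-dense band 19p13 holds a kinase of cytokine signalling, a chromatin remodeller, translation factors, coat proteins of membrane traffic and metabolic enzymes side by side. DNA was not measured in these libraries, and the labels describe RNA alone.

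ZNF263 itself stood at 39.1 and 39.8 FPKM in the ZNF263 libraries of H1975, against 10.2 and 9.63 FPKM in its control libraries. It stood at 39.3 and 38.98 FPKM against 9.55 and 9.11 FPKM in PC9, and at 19.6 and 19.8 FPKM against 13.2 and 11.8 FPKM in HCC827, so the excess was smallest in HCC827. At 1 FPKM the median gene stood for between 122.0 and 131.4 reads in the H1975 libraries, between 69.1 and 78.7 in PC9 and between 63.6 and 66.5 in HCC827. In H1975, between 149 and 21990 reads stood behind a member's value in the ZNF263 libraries, and between 352 and 19054 in the control libraries. The 5 epithelial markers (EPCAM, KRT8, KRT18, KRT19, CDH1) summed to between 1443 and 1467 FPKM with ZNF263 in H1975, against between 2141 and 2177 FPKM in control, and 1 was called higher and 4 lower. The 5 fibroblast or mesenchymal markers summed to between 175.1 and 179.5 FPKM with ZNF263, against between 28.9 and 32.2 FPKM in control, with 2 called higher and 1 lower, and DCN and THY1 stayed under 0.1 FPKM in each H1975 library. The 5 immune markers summed to between 19.2 and 22.1 FPKM with ZNF263, against between 2.43 and 4.06 FPKM in control, with 1 called, and PTPRC stayed under 0.1 FPKM. The 4 endothelial markers summed to between 0.794 and 0.799 FPKM with ZNF263, against between 0.715 and 0.841 FPKM in control. The part of these shifts in the results on H1975 was not tested. In RNA from bulk cultures, fewer cells of a type and less RNA per cell cannot be told apart.

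Promoter windows are printed for 5 members that span the range of change in H1975, so that the letters at their starts can be compared. The windows span the RefSeq start (GRCh38.p14), most of each lying before it, 5′ to 3′ on the strand of the gene, and capitals mark GGGAGGA on either strand (TCCTCCC on the other), a run of the G-rich kind that ZNF263 binds. NFIX, a transcription factor, lay at chr19:12995225-12995524 on the plus strand and was among the highest changes. ISYNA1, the synthase of inositol phosphate, lay at chr19:18438084-18438383 on the minus strand and had the highest. GIPC1, an adaptor of receptor traffic, lay at chr19:14496078-14496377 on the minus strand and was lower with ZNF263. NOTCH3, a receptor, lay at chr19:15200946-15201245 on the minus strand and was the lowest. IER2, an immediate early gene, lay at chr19:13150161-13150460 on the plus strand, and its start lies 32 bases from that of STX10, which is read the other way.
NFIX: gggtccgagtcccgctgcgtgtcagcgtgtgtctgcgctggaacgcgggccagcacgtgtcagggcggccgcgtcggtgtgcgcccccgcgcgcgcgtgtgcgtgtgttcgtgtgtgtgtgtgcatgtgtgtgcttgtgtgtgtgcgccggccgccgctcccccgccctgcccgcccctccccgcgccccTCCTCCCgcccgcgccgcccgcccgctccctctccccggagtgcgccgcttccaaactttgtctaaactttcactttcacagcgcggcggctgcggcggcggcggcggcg
ISYNA1: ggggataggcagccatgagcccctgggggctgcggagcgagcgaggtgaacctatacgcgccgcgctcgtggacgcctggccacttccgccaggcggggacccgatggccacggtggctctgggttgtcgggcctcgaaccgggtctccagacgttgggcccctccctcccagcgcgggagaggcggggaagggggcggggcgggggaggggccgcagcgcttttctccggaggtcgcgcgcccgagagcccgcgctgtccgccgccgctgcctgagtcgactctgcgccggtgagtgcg
GIPC1: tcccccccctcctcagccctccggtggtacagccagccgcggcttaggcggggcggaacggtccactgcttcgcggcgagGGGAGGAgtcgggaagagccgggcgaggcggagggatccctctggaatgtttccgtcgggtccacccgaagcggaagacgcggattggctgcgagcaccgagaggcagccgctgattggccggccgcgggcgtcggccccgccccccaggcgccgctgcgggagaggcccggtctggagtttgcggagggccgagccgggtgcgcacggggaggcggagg
NOTCH3: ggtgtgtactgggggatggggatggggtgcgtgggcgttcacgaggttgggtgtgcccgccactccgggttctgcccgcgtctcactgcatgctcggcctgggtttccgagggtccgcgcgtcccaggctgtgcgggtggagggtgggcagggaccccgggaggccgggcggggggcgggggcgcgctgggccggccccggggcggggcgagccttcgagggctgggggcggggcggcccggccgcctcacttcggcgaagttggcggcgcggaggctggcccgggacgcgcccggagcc
IER2: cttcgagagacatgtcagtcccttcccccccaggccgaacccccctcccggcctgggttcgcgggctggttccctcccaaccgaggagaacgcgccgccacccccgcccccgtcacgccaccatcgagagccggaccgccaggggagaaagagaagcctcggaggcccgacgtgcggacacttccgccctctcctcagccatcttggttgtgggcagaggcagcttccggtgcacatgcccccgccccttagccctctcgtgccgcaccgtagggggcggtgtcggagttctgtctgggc

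The G-rich letters stood at the members at a share close to that of tested genes. Windows were held for 47 members, of which 10 (21.3%) had GGGAGGA on either strand. The share was 20.9% of the windows of 9963 tested genes, 26.7% of those of 120 other genes of the interval and 17.8% of all 27305 windows. The median change in H1975 was 0.70 for the 10 members with these letters and 0.69 for the 37 without them. GGGCGG, the letters of the GC box, stood in 41 of the 47 windows (87.2%), against 70.5% of the windows of tested genes. Among the 120 other genes of the interval its share was 82.5%. The median GC content of a window was 68.3% for the members and 65.3% for tested genes. CCAAT stood in 20 (42.6%) against 36.7% of tested genes and 53.3% of the other interval genes. TATAAA stood in 1 (2.1%) against 5.5% and 4.2%. Each motif was sought on both strands, and a match is a run of letters and not a site.

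In H1975, 49 of the 54 members were called higher with ZNF263, 4 were called lower and 1 was not called. Calls were made with limma at an adjusted p under 0.05 over 12258 genes, of which 32.1% were called higher and 32.1% lower, and nothing is read from the members' count, since this contrast chose them. The 2 ZNF263 libraries lay above both control libraries for 50 members, against 41.7% of all genes tested, and below both for 4, against 40.8%. The median change of the members was 0.70 on the log2 scale, with quartiles of 0.39 and 0.88. All genes tested had a median of 0.0036 in H1975. As a ratio of mean FPKM, ZNF263 over control, the median member stood at 1.66, with quartiles of 1.33 and 1.91 and a full range from 0.268 to 5.75.

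**Figure D1:**
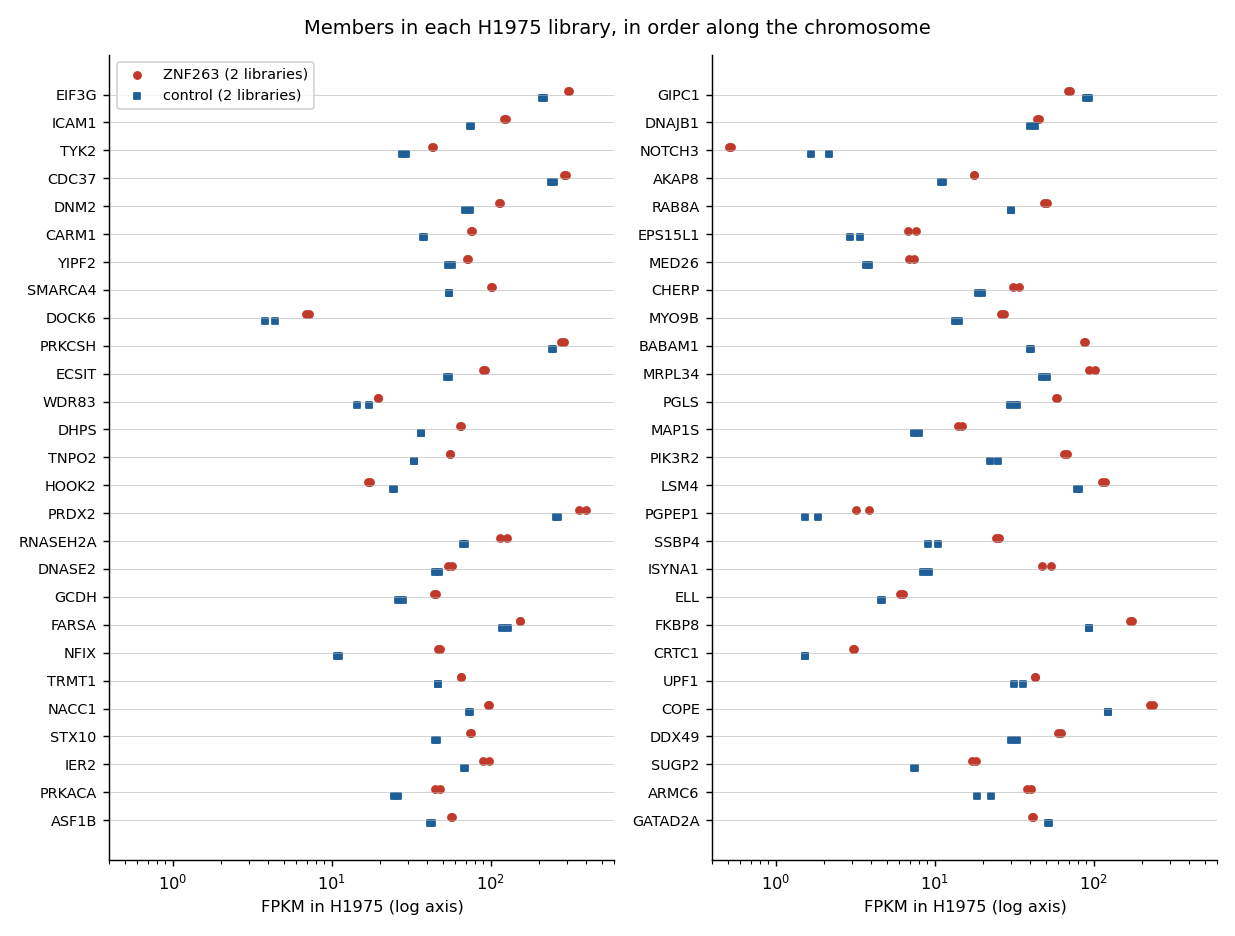
FPKM of the 54 members in each H1975 library on a log axis, in order along the chromosome, with circles for the ZNF263 libraries and squares for the control libraries. The circles lie to the right of both squares for 50 members and to the left for HOOK2, GIPC1, NOTCH3 and GATAD2A.

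Among 11 genes of receptors and signalling, 9 were called higher in H1975, against 32.1% of all genes tested. The counts by class describe the contrast that chose the members, and nothing is read from them. PIK3R2, a regulatory subunit of phosphoinositide 3-kinase at 18153118 to 18170540 (GRCh38, plus strand), stood at 67.9 and 65.4 FPKM with ZNF263, against 24.9 and 22.3 FPKM in control, a log2 change of 1.46 ± 0.062 (SE). The libraries of each group were close and the groups lay far apart. ICAM1, a surface adhesion molecule for leukocytes at 10270835 to 10286615, stood at 125 and 121 FPKM against 74.3 and 74.98 FPKM. TYK2, a Janus kinase that serves cytokine receptors, stood at 43.6 and 42.8 FPKM against 29.3 and 27.7 FPKM. The catalytic subunit of protein kinase A, PRKACA, stood at 48.3 and 44.8 FPKM against 26.1 and 24.5 FPKM. None of these overlapped between the groups, and the ZNF263 libraries lay above both controls for 41.7% of all genes tested. The other genes of this class that were higher were MYO9B, a myosin that acts on RhoA, ECSIT, an adaptor of Toll-like receptor signalling and of complex I assembly, CRTC1, a coactivator of CREB, DOCK6, an exchange factor for small GTPases, and AKAP8, an anchor of protein kinase A. Their log2 changes lay between 0.63 and 0.89.

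NOTCH3 and GIPC1 went the other way. NOTCH3, a Notch receptor at 15159038 to 15200981 on the minus strand, stood at 0.5205 and 0.507 FPKM with ZNF263, against 1.66 and 2.18 FPKM in control, which is -0.94 ± 0.086 (SE) on the log2 scale and a ratio of 0.268. Between 149 and 152 reads stood behind its values with ZNF263, against 492 and 598 in control. GIPC1, at 14477760 to 14496149, stood at 70.8 and 69.1 FPKM against 93.8 and 89.4 FPKM, a change of -0.38 ± 0.067. Their neighbours among the members did not share the direction. ASF1B and DNAJB1, on the sides of GIPC1, stood at 0.41 and 0.11, and AKAP8, the next member after NOTCH3, stood at 0.63. Tested genes that are not members lie closer. ILVBL and EPHX3, on the sides of NOTCH3, stood at 0.62 and -1.62, and PTGER1, just before GIPC1, stood at -0.03.

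Among 12 genes of chromatin, transcription and DNA repair, 11 were called higher in H1975, against 32.1% of all genes tested. NFIX, a nuclear factor I protein at 12995608 to 13098796 on the plus strand, stood at 47.8 and 46.3 FPKM with ZNF263, against 10.7 and 11.1 FPKM in control, a log2 change of 2.01 ± 0.07 (SE). SSBP4, a single-stranded DNA binding protein, stood at 25.5 and 24.3 FPKM against 10.6 and 9.03 FPKM and changed by 1.27 ± 0.076. BABAM1, a subunit of the BRCA1-A deubiquitinase complex, stood at 86.8 and 87.7 FPKM against 40.03 and 39.7 FPKM and changed by 1.11 ± 0.063. Each of these was more than 1 higher on the log2 scale. CARM1, an arginine methyltransferase that acts with transcription factors, stood at 75.9 and 75.3 FPKM against 38.03 and 37.3 FPKM. SMARCA4, the BRG1 ATPase of the SWI/SNF remodeller at 10960825 to 11079426, stood at 100.1 and 102 FPKM against 54.6 and 54.6 FPKM, a ratio of 1.85. RNASEH2A, the catalytic subunit of ribonuclease H2, MED26, a Mediator subunit, IER2, ASF1B, a histone chaperone, NACC1, a BTB domain protein, and ELL, an elongation factor, lay between 0.35 and 0.81. GATAD2A, a subunit of the NuRD complex and the last member along the chromosome at 19385826 to 19508931, was lower, at 41.2 and 41.3 FPKM with ZNF263 against 51.7 and 52.4 FPKM in control.

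All 11 genes of RNA and translation were called higher in H1975, against 32.1% of all genes tested. SUGP2, an SR-related splicing protein, stood at 17.1 and 18.2 FPKM with ZNF263, against 7.46 and 7.44 FPKM in control, a log2 change of 1.14 ± 0.065 (SE). MRPL34, a protein of the large mitochondrial ribosomal subunit, stood at 103 and 93.01 FPKM against 47.5 and 50.5 FPKM, a ratio of 1.995. DDX49, an RNA helicase, stood at 62.2 and 59.7 FPKM against 32.7 and 30.05 FPKM. EIF3G, a subunit of initiation factor eIF3 and the first member along the chromosome at 10115017 to 10119918, stood at 309 and 305 FPKM against 216 and 212 FPKM, a ratio of 1.44. The ZNF263 libraries lay above both controls for each gene of the class, against 41.7% of all genes tested. DHPS, which makes the precursor of hypusine in eIF5A, CHERP, LSM4, a subunit of the Lsm ring, and TRMT1, a tRNA methyltransferase, lay between 0.31 and 0.80. So did UPF1, the helicase of nonsense-mediated decay, and FARSA, a phenylalanyl-tRNA synthetase chain. WDR83 had the smallest change of the class (0.30 ± 0.11) and was 0.17 without H1975 control replicate 2, where its call was lost.

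Among 9 genes of membrane traffic and transport, 8 were called higher in H1975, against 32.1% of all genes tested. EPS15L1, an endocytic adaptor of clathrin-coated pits, stood at 6.79 and 7.58 FPKM with ZNF263, against 3.4 and 2.94 FPKM in control, a log2 change of 0.97 ± 0.078 (SE). COPE, a subunit of the COPI coat, stood at 235 and 225 FPKM against 123 and 124 FPKM, a ratio of 1.87. MAP1S, a microtubule-binding protein, TNPO2, a nuclear import receptor, RAB8A, a GTPase of secretory traffic, STX10, a SNARE of the trans-Golgi, DNM2, the dynamin of endocytosis, and YIPF2, a Golgi membrane protein, lay between 0.37 and 0.82. HOOK2, a linker of cargo to microtubules, was lower, at 17.4 and 16.9 FPKM with ZNF263 against 24.4 and 24.7 FPKM in control. PRDX2 and RNASEH2A, which overlap the GENCODE v29 span of HOOK2, were higher by 0.53 and 0.81.

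Among 11 genes of chaperones and metabolism, 10 were called higher in H1975 and none lower, against 32.1% of all genes tested in each direction. ISYNA1, at 18434388 to 18438301 on the minus strand, stood at 53.96 and 47.4 FPKM with ZNF263, against 8.42 and 9.22 FPKM in control, a log2 change of 2.39 ± 0.082 (SE) and the largest among the members. ARMC6 stood at 40.5 and 37.9 FPKM against 22.7 and 18.4 FPKM. PRDX2, a peroxiredoxin that reduces hydrogen peroxide, was the member with the highest level in H1975, at 397 and 359 FPKM against 257 and 264 FPKM. PGLS, an enzyme of the pentose phosphate pathway, FKBP8, an immunophilin, PGPEP1, a peptidase, and GCDH, glutaryl-CoA dehydrogenase, lay between 0.69 and 0.88. The other 4 had small changes. DNASE2, the lysosomal acid DNase, stood at 57.2 and 53.7 FPKM against 44.9 and 47.4 FPKM. CDC37, the co-chaperone that brings kinases to HSP90, stood at 288 and 297 FPKM against 252 and 238 FPKM. PRKCSH, the beta subunit of glucosidase II, stood at 288 and 276 FPKM against 245 and 241 FPKM, a ratio of 1.16. DNAJB1, an HSP40 chaperone, stood at 45.1 and 44.2 FPKM against 39.5 and 42.9 FPKM and was the 1 member without a call.

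The members' change in H1975 was weakly related to their level. Across the 54 members, Spearman's rho between the change and the control level was -0.327 and Pearson's r was -0.187, a description over genes of the same 4 libraries. The control libraries enter both quantities, with opposite sign in the change, which can by itself make these values negative. Several members overlap, most of them on opposite strands, and a strand setting is not stated. CARM1 and YIPF2 overlap by 886 bases, SUGP2 and ARMC6 by 449, SSBP4 and ISYNA1 by 175, and WDR83 and DHPS by 116. By the GENCODE v29 positions used here, HOOK2 overlaps PRDX2 by 5040 bases and RNASEH2A by 8646. The RefSeq promoter window of HOOK2 lies at chr19:12792301-12792600 on the minus strand. From that start HOOK2 would not reach PRDX2, at 12796820 to 12801859, or RNASEH2A, at 12806556 to 12815201. Neither the strand setting nor the gene models are stated, so whether reads from overlapping stretches were told apart by gene is not known. HOOK2 and PRDX2 lie on the same strand.

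The higher values in H1975 were shared by most of the other genes of the stretch and ended within it. Of 153 tested genes between 10 and 20 Mb that are not members, 112 were called higher and 21 lower, with a median change of 0.52 and quartiles of 0.18 and 0.72. In windows of 1 Mb from 10 to 19 Mb, the median change lay between 0.40 and 0.85 in each of the 9 windows, of which 4 held under 20 genes. In the window from 19 to 20 Mb it was -0.31, and 10 of 23 genes were above 0. From 20 to 25 Mb all 25 tested genes were called lower, with a median of -0.66. On the other side, the window from 9 to 10 Mb had a median of 0.26 (12 of 14 genes above 0) and that from 8 to 9 Mb a median of 0.43 (9 of 12), both with under 20 genes, so the higher values did not begin at 10 Mb. Over 0 to 10 Mb as a whole, the 197 tested genes had a median of 0.037. Other stretches of the chromosome also shifted in these libraries. Beyond 25 Mb, 126 of 514 genes were called higher and 234 lower, and in each of the 7 windows from 52 to 59 Mb the median lay between -0.80 and -0.40. All tested genes from 20 to 25 Mb except RPSAP58 are ZNF-named, as are all from 52 to 53 Mb except PPP2R1A. The window from 43 to 44 Mb was also low, with a median of -0.65 and 2 of 22 genes above 0. Many of its genes are not ZNF-named, PSG5, XRCC1, PLAUR and SMG9 among them. ZNF-named genes from 11 to 13 Mb mostly lay above 0. The part of this gene family in the shifts was not tested. All of these values are descriptions, because the region was chosen for its change in these libraries.

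**Figure D2:**
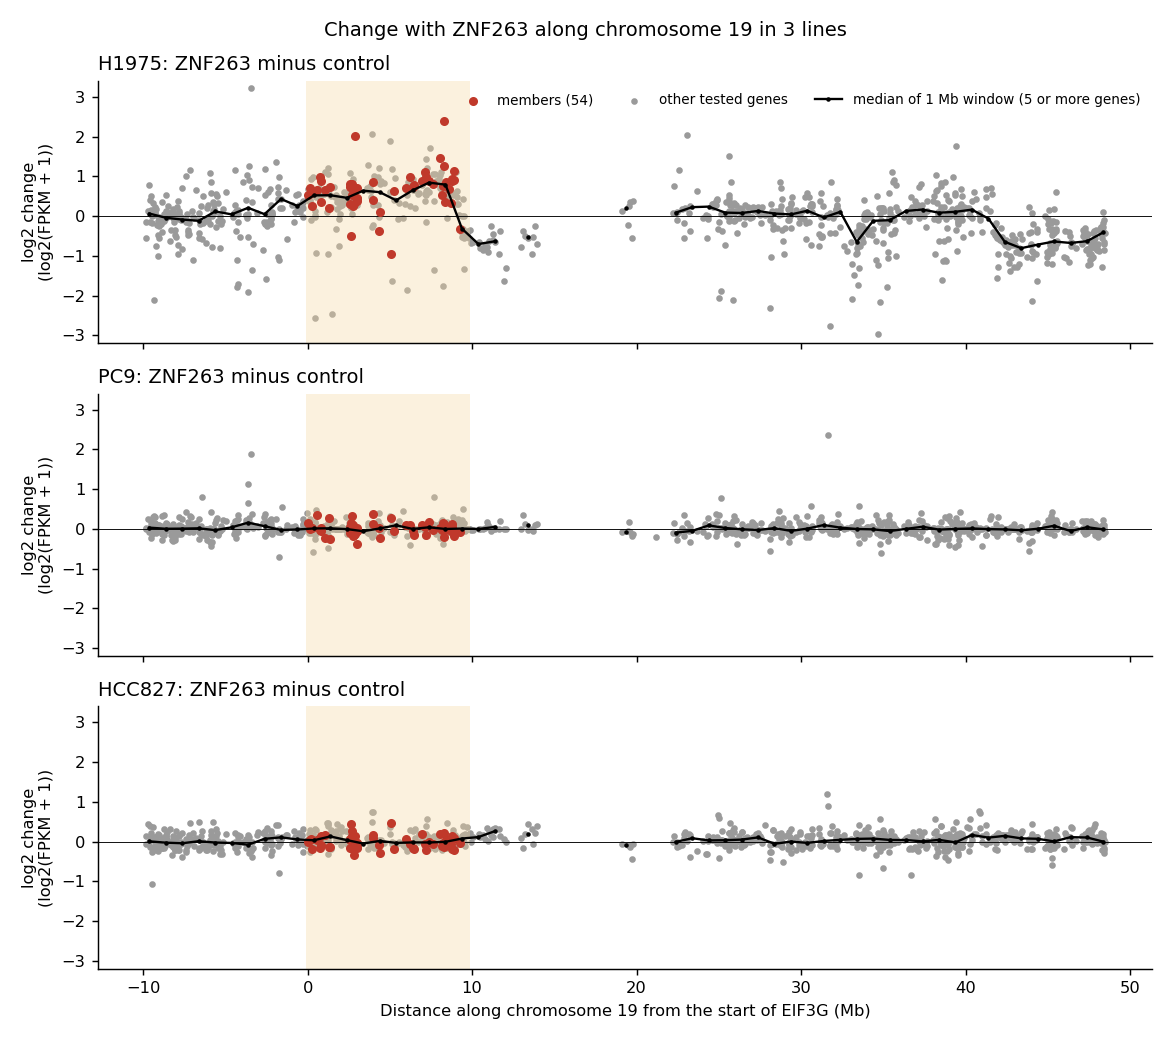
Change with ZNF263 (log2(FPKM + 1), ZNF263 minus control) of each tested gene of chromosome 19 against its distance from the start of EIF3G, in H1975, PC9 and HCC827, with members as red points, other genes as grey points, medians of 1 Mb windows as a black line and the interval shaded. In H1975 the line runs between 0.40 and 0.85 from the window of EIF3G up to the turn near the end of the shaded interval and then falls to -0.31, while in PC9 and HCC827 it stays near 0.

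The turn lies next to GATAD2A. On its near side TMEM161A stood at 1.12 ± 0.067 (SE), RFXANK at 0.62 ± 0.11 and SUGP1 at 0.30 ± 0.077. MAU2, the tested gene just before GATAD2A, stood at 0.023 ± 0.058. GATAD2A, at -0.33 ± 0.059, is the 1 member beyond the turn. Of the tested genes just after it, TSSK6 stood at -0.43 ± 0.17, NDUFA13 at 0.0002 ± 0.058 and YJEFN3 at -0.53 ± 0.11. The groups of TSSK6 overlapped, at 3.41 and 1.89 FPKM with ZNF263 against 4.51 and 3.23 FPKM in control. At the other end, EIF3G stood at 0.52 ± 0.055, and tested genes just before it stood at 0.40 ± 0.09 for PPAN and -0.013 ± 0.11 for OLFM2. OLFM2 had no usable level in H1975 and passed the filter through the other lines, so its value says nothing of the edge. It stood at 0.0495 and 0.123 FPKM with ZNF263 against 0.0487 and 0.145 FPKM in control.

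Other genes within the stretch had changes as large as those of the outermost members, in both directions. IL27RA, a cytokine receptor chain, stood at 31.3 and 30.01 FPKM with ZNF263, against 7.02 and 6.16 FPKM in control, a log2 change of 2.06 ± 0.1 (SE). SYDE1, COLGALT1, a collagen galactosyltransferase, ANO8 and ZSWIM4 changed by 1.88, 1.71, 1.45 and 1.28. AP1M2, the epithelial subunit of an adaptor complex, stood at 3.25 and 2.87 FPKM against 22.2 and 23.5 FPKM, a change of -2.55 ± 0.07. ACP5, HSH2D, GDF15 and EPHX3 stood at -2.47, -1.85, -1.76 and -1.62.

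In PC9 and HCC827, whose contrasts did not choose the members, the block as a whole showed no such shift. In PC9, 4 of 54 members were called higher, against a background of 7.21% of genes, and 2 lower, against 4.12%. Together these are 11.1% of the members, against 11.3% of the 12623 genes tested. In HCC827, 2 were called higher, against 13% of genes, and 4 lower, against 6.44%, again 11.1% together, against 19.5% of 12266 genes. The change itself differed between HCC827 and PC9 for 4 members, against 9.6% of genes. The median member change was 0.0026 in PC9 (53 members, quartiles -0.077 and 0.10), where all genes had a median of -0.0027. It was -0.035 in HCC827 (54 members, quartiles -0.15 and 0.078), where all genes had a median of 0.046. The members' median ratio of mean FPKM was 1.0 in PC9 and 0.975 in HCC827. The median lay between -0.056 and 0.064 in PC9 and between -0.10 and 0.027 in HCC827 when each library was left out in turn. The ZNF263 libraries lay above both controls for 16 members in PC9 and 13 in HCC827, against 28.4% and 35.2% of all genes, and below both for 14 and 17, against 29.2% and 18.7%.

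**Figure D3:**
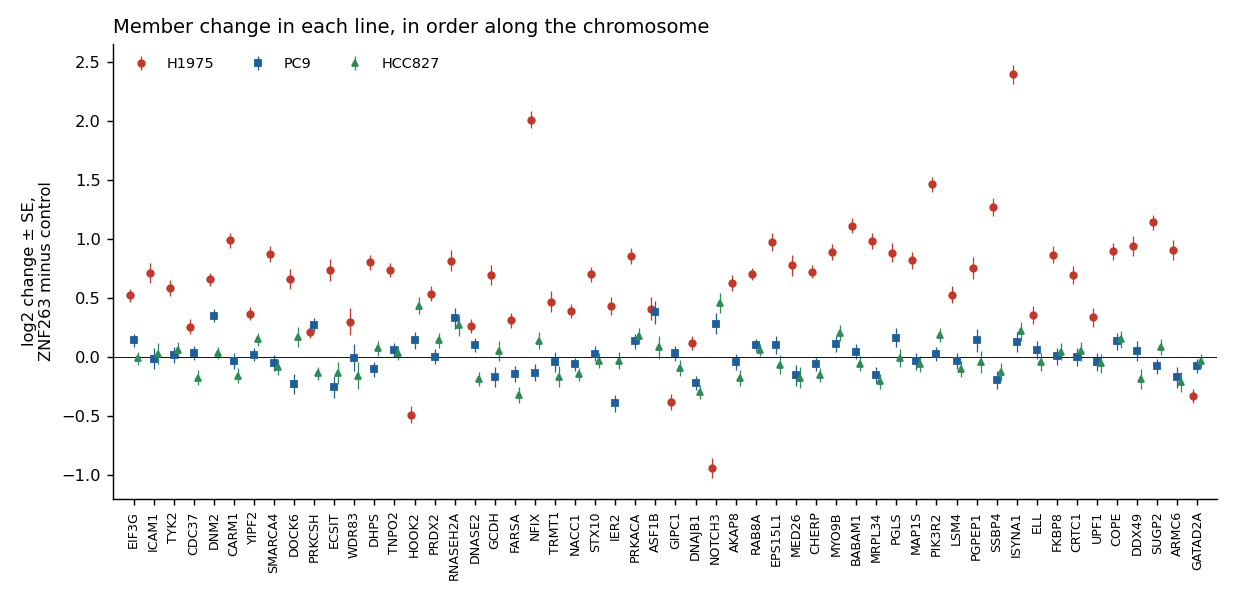
Log2 change with ZNF263 and its SE for each member in H1975, PC9 and HCC827, in order along the chromosome (n = 2 libraries per group). The SE is pooled over all 6 groups and is the same in each line. Most circles for H1975 lie above 0.3, while the squares for PC9 and the triangles for HCC827 lie between -0.39 and 0.46.

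The 6 members called in PC9 did not go one way. DNM2 stood at 48.8 and 46.6 FPKM with ZNF263, against 38.2 and 36.3 FPKM in control, and rose by 0.35 ± 0.054 (SE, limma adjusted p = 0.00113). PRKCSH stood at 76.5 and 71.2 FPKM against 61.5 and 60.3 FPKM and rose by 0.27 ± 0.053 (limma adjusted p = 0.00539). ASF1B rose by 0.38 and RNASEH2A by 0.33 (limma adjusted p = 0.0271 and 0.031). IER2 stood at 16.6 and 16.2 FPKM against 21.3 and 22.3 FPKM and fell by 0.39 (limma adjusted p = 0.00368). DNAJB1 fell by 0.22 (limma adjusted p = 0.0287). STX10, whose start lies 32 bases from that of IER2, stood at 18.5 and 17.2 FPKM against 18.3 and 16.8 FPKM in PC9, with overlapping groups. DNM2 kept its call without each library in turn. PRKCSH lost it without PC9 control replicate 2 (0.26, limma adjusted p = 0.0664) and without ZNF263 replicate 1 (0.22, limma adjusted p = 0.0626), and IER2 without control replicate 2 (-0.36, limma adjusted p = 0.0525). ASF1B lost it without control replicate 1 and without ZNF263 replicate 1, at 0.26 each time (limma adjusted p = 0.24 and 0.244). RNASEH2A and DNAJB1 lost it without any 1 of the 4 libraries, at 0.26 to 0.39 and -0.25 to -0.19. The number of members called fell to between 2 and 4 without 1 library, with 3 without PC9 control replicate 1, 2 without control replicate 2, 2 without ZNF263 replicate 1 and 4 without ZNF263 replicate 2.

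In HCC827, NOTCH3 and HOOK2 were the members called higher. NOTCH3 stood at 13.9 and 12.6 FPKM with ZNF263, against 9.44 and 9.28 FPKM in control, and rose by 0.46 ± 0.086 (SE, limma adjusted p = 0.00299). HOOK2 stood at 20.3 and 18.4 FPKM against 14.4 and 13.7 FPKM and rose by 0.43 ± 0.073 (limma adjusted p = 0.00148). Both were lower with ZNF263 in H1975, and the difference between the lines was not tested, because the H1975 values chose the members. FARSA stood at 35.4 and 34.7 FPKM against 47.5 and 41.1 FPKM and fell by 0.33 (limma adjusted p = 0.0049). DNAJB1 fell by 0.30, MRPL34 by 0.21 and DNASE2 by 0.19 (limma adjusted p = 0.00398, 0.0409 and 0.0411). The count of 2 higher and 4 lower depended on the scaling and on the libraries. With median-of-ratios scaling it was 2 higher and 11 lower, without HCC827 control replicate 2 it was 2 and 10, without ZNF263 replicate 1 it was 2 and 1, and when HCC827 was fitted by itself it was 2 and 0. NOTCH3, HOOK2 and FARSA kept their calls without each library, and the call of DNAJB1 in HCC827 was lost without ZNF263 replicate 1 (-0.24, limma adjusted p = 0.0531). MRPL34 lost its call without any 1 library (-0.23 to -0.19), and DNASE2 without any but control replicate 2 (-0.21 to -0.14).

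The 6 members with the largest changes in H1975 were not called in PC9 or HCC827, although NFIX was called higher in HCC827 with a pseudocount of 0.1 (0.33, limma adjusted p = 0.0346) and PIK3R2 with quantile normalization (0.20, limma adjusted p = 0.0471). NFIX stood at 4.12 and 3.66 FPKM with ZNF263, against 4.29 and 4.45 FPKM in control, in PC9, and at 0.627 and 0.633 FPKM against 0.463 and 0.503 FPKM in HCC827. ISYNA1 stood at 2.48 and 2.28 FPKM against 2.26 and 1.94 FPKM in PC9, a log2 change of 0.13 ± 0.082 (SE), and at 36.5 and 35.5 FPKM against 32.4 and 29.3 FPKM in HCC827, a change of 0.22 ± 0.082. PIK3R2 stood at 0.023 ± 0.062 in PC9 and 0.19 ± 0.062 in HCC827. SSBP4, SUGP2 and BABAM1 stood at -0.20, -0.079 and 0.044 in PC9 and at -0.13, 0.083 and -0.059 in HCC827.

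Levels set side by side across the lines are given as a description, since the entries without a value differ between the lines of the deposited table and it is not known whether all lines were processed alike. On the log2(FPKM + 1) scale, the median member of H1975 lay 0.81 above the HCC827 control with ZNF263 and 0.21 above it in control cells. For 11985 tested genes outside the interval, the same medians were 0.021 and 0.023. Against the PC9 control, 53 members lay 1.73 higher with ZNF263 and 0.97 higher in control cells, while 11777 genes outside the interval lay 0.081 and 0.072 higher. The median member was thus at a lower level in PC9 than in H1975, beside the 0 values of PRDX2 there. Whether a difference in processing has a part in this was not tested.

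Partners of the members that are encoded on other chromosomes did not share a direction in H1975. The list held 119 subunits and pathway partners of 19 members, of which 6 lie on chromosome 19 and 113 were tested. Of these, 43 rose, 34 fell and 36 did not pass, with a median change of 0.030 and quartiles of -0.27 and 0.34. The 68.1% called is to be read against 64.2% of all genes tested. The shares that rose and fell were 38.1% and 30.1%, against 32.1% and 32.1% of all genes tested. SMARCA4 was 0.87 higher, while 6 of its 12 SWI/SNF partners rose, 3 fell and 3 did not pass. EIF3G was 0.52 higher, while 6 of 11 eIF3 partners rose, 2 fell and 3 did not pass, and EIF3M rose by 0.75 ± 0.055 (SE, limma adjusted p = 9.22e-08). MED26 was 0.77 higher, while 6 of 18 Mediator partners rose and 6 fell, MED30 by 0.73 (limma adjusted p = 7.02e-05). For UPF1 3 of 8 rose and 2 fell, for LSM4 1 of 6 rose and 2 fell, and for ELL 1 of 7 rose and 4 fell.

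Of the sets with at least 5 partners, the COPI coat had the highest share that rose. COPE was 0.90 higher, and 6 of its 8 coat partners rose and 1 fell, with a median of 0.44. Of all genes tested, 32.1% were called higher and 32.1% lower, and no partner set was tested as a whole. COPZ2, a zeta chain, stood at 4.74 and 5.19 FPKM with ZNF263, against 1.33 and 2.19 FPKM in control, and rose by 1.13 ± 0.12 (SE, limma adjusted p = 3.05e-06). COPZ1, the other zeta chain, stood at 60.4 and 62.6 FPKM against 104 and 98.2 FPKM and fell by 0.71 (limma adjusted p = 7.02e-08). HSP90AA1, the stress-induced HSP90 that works with CDC37, stood at 461 and 492 FPKM against 825 and 836 FPKM and fell by 0.80 (limma adjusted p = 6.29e-07), while CDC37 was 0.26 higher.

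Around NOTCH3, 6 of 9 pathway partners fell in H1975 and 2 rose, against 32.1% of all genes tested in each direction. JAG2, a Notch ligand, stood at 5.34 and 5.83 FPKM with ZNF263, against 22.5 and 23.9 FPKM in control, and fell by 1.88 (limma adjusted p = 3.74e-10). HEY1, a target of Notch signalling, stood at 0.416 and 0.46 FPKM against 2.35 and 3.05 FPKM and fell by 1.36 (limma adjusted p = 8.19e-07). NOTCH2, a related receptor, stood at 31.4 and 32.1 FPKM against 18.9 and 16.99 FPKM and rose by 0.79 ± 0.058 (SE, limma adjusted p = 8.7e-08). The epithelial and mesenchymal marker sums given above moved in the same libraries.

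**Figure D4:**
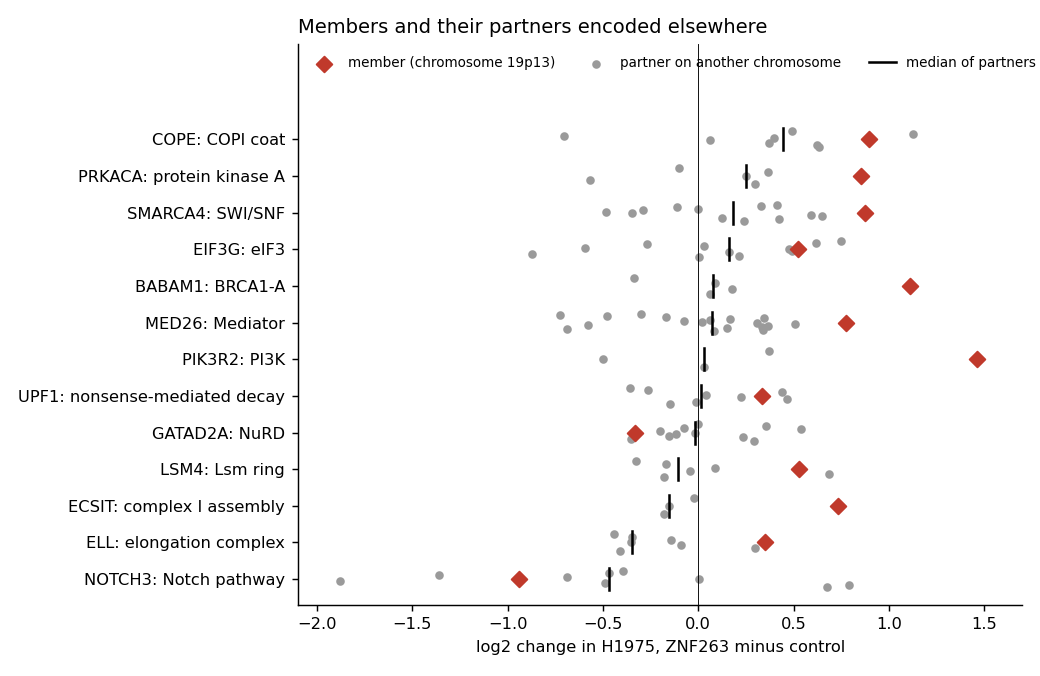
Log2 change in H1975 (ZNF263 minus control) of the members that have at least 3 tested partners on other chromosomes, as red diamonds, of each partner, as grey points, and of the partners' median, as black bars. The diamond lies to the right of its bar for COPE, SMARCA4, EIF3G, BABAM1, PIK3R2 and other members, and to the left for GATAD2A and NOTCH3.

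The members are rich in G and C, and the change in H1975 outside the interval had little relation to GC content. The median GC content of the longest transcript was 60.4% for the members and 48.5% for 12028 tested genes outside the interval. Across the genes outside, Spearman's rho between GC content and the H1975 change was 0.029, a description across genes, which are not independent replicates. In 5 equal groups of the tested genes by GC content, the median change of interval genes, members included, lay between 0.28 and 0.66, while that of the genes outside lay between -0.009 and 0.013. The 2 groups of lowest GC content held 8 and 18 interval genes.

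**Figure D5:**
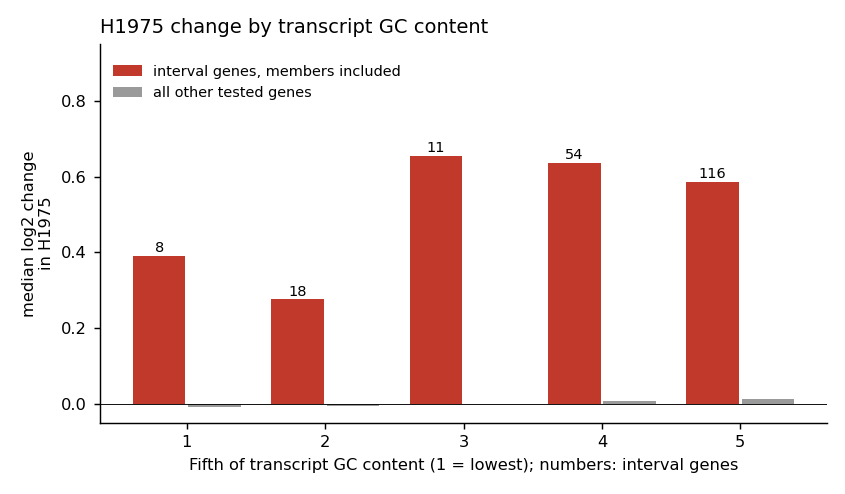
Median log2 change in H1975 (ZNF263 minus control) in 5 equal groups by transcript GC content, with red bars for genes of the interval and grey bars for all other tested genes, and the number of interval genes above the red bars. The red bars stand between 0.28 and 0.66 and the grey bars between -0.009 and 0.013.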

How the data were processed

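The authors deposited FPKM values, 1 column per library, made on GRCh38.p13 per the submitters' processing notes. Which aligner, counter, gene models and strand option they used is information not given in sources used here. Of 20030 entries, 27 had names turned into dates and were left out. Values were analysed as log2(FPKM + 1), which understates the change of low genes, for the 12623 genes reaching 1 FPKM in 2 of the 12 libraries. Tests were 2-sided, from limma 3.58.1 under R 4.3.3 with a trended eBayes prior, fitting all 6 groups together. Benjamini-Hochberg adjustment was over all genes of a contrast. The spread of a gene was pooled over the 6 groups, so the SE of a member is the same in each line. The fit was tested on simulated data. The difference of the ZNF263 effect between HCC827 and PC9 was a further contrast of the same fit. Genes listed at 0 in all 4 libraries of a line were left out of medians.

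Depth was read from the values: the smallest read numbers that made a gene's 4 values in a line whole, within 0.002 reads, were sought. Whole reads came out for 98.8%, 99.7% and 98.5% of 1500 genes in PC9, HCC827 and H1975, against 1.47%, 0.40% and 1.53% after shuffling, and for all 54 members.

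Positions came from GENCODE v29 (GRCh38), which matched all but 764 entries by symbol. Promoter windows came from RefSeq. The members, their roles and the partner list were chosen with earlier results of these data known. Members described singly were the 12 largest and 8 smallest changes in H1975, the 5 highest levels, the ends of the block and all calls in PC9 or HCC827. Genes outside the list were named by the same kind of rule. Further members, edge genes and other genes of the chromosome were named by role or position after their values were seen. A gene that the rule names is not reported here. Alternatives were another pseudocount, no filter, 2 scalings, a fit per line, a replicate block and each library left out.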

Additional observations from a re-analysis of the deposited data

Results flagged for a closer look

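The change with ZNF263 differed between HCC827 and PC9 for 4 of the 54 members (7.41%), by the contrast HCC827 minus PC9 in the limma fit over 12266 genes, of which 9.6% were called. For PRKCSH the difference was -0.41 ± 0.076 (SE, limma adjusted p = 0.00451), with changes of -0.14 in HCC827 and 0.27 in PC9. For DNM2 it was -0.32 ± 0.077 (limma adjusted p = 0.022), with 0.033 and 0.35 in the same order. For DNASE2 it was -0.29 ± 0.083 (limma adjusted p = 0.0464), with -0.19 and 0.10. For IER2 it was 0.36 ± 0.1 (limma adjusted p = 0.0464), with -0.035 and -0.39. ZNF263 itself was raised less in HCC827 than in PC9, and its part in these differences was not tested.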

How the results depend on the processing

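The H1975 contrast chose the members, so their values there under other settings are a description and give no support. In H1975, 52 of 54 members kept their direction and their side of the threshold under every alternative run. The exceptions were WDR83, whose call was lost in 5 settings, and DNAJB1, which was called with quantile normalization (0.15). The number of members called in H1975 lay between 52 and 54. The median member change there was 0.73 with a pseudocount of 0.1 and 0.73 with quantile normalization (0.731 and 0.730), and between 0.69 and 0.71 without 1 library, against 0.70. Between 68 and 71 partners and between 127 and 132 other genes of the interval were called without 1 H1975 library, against 77 and 133. In PC9, members called numbered 2 to 4 without 1 library, and the median member change lay between -0.056 and 0.064. In HCC827, members called numbered 3 to 12 without 1 library, 13 with median-of-ratios scaling and 2 in a fit on the line alone, and the median change lay between -0.10 and 0.027. Of the 12 results for single members followed in each of these lines, 7 in PC9 and 6 in HCC827 kept their side under every alternative. The replicate numbers share only a label (correlation of same-numbered libraries 0.037 in PC9, 0.089 in HCC827 and -0.044 in H1975), and with the replicate block 5, 7 and 53 members were called, against 6, 6 and 53. Precision is limited by 2 libraries per group.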
